A study of Drosophila melanogaster with 4 samples.

Results

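Among the places where ASH1 and FSH co-localize in Drosophila S2-DRSC cells, 440 sites were both strong and short in the peak lists of both proteins. They were selected on measured values, namely on overlap, score and length. A site is a pair of 1 ASH1 peak and 1 FSH peak that share at least 1 bp and overlap no further peak of the other list, with both scores at 1000 or above and both lengths at most 1000 bp. Of 9059 overlapping peak pairs outside the mitochondrial sequence, 7022 were one-to-one pairs, and 6.27% of these (440 pairs) met the limits on score and length. The lists held 10746 ASH1 peaks and 8822 FSH peaks outside the mitochondrial sequence.

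S2-DRSC is a cultured line of embryonic origin, grown here without any treatment or genetic change. Its cross-linked chromatin was precipitated with 2 rabbit antibodies against ASH1 (ASH1N and ASH1C) and 2 against FSH, labelled FSH-S and FSH-S+L, and sequenced as 4 ChIP-seq libraries. The labels and the protocol disagree on the FSH antibodies, since the protocol describes one of them as specific for FSH-L, the long isoform, and not for FSH-S, the short one. The authors merged both libraries of a protein before they called peaks against input chromatin, so each protein has 1 list and no spread between replicates or antibodies can be given.

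ASH1 (Absent, small, or homeotic discs 1) is a Trithorax group (TrxG) protein with a SET domain that methylates histone H3. FSH, the product of female sterile (1) homeotic, belongs to the bromodomain and extraterminal (BET) family, whose tandem bromodomains bind acetylated histones. TrxG proteins maintain the active state of homeotic and other developmental genes, whereas Polycomb group (PcG) proteins act through Polycomb response elements (PREs) to keep these genes silent. In a ChIP-seq profile, a protein held at one point on DNA typically gives a short peak, while proteins spread along chromatin give broad or split ones.

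The lists do not name the peak score. It was taken for the P value of the peak caller on a scale of -10 times log10, since no peak scored under 50.02 and the cut-off of 1e-05 corresponds to 50 on that scale. Scores pile up at 3100, which 1965 ASH1 and 1565 FSH peaks share, so peaks there have no order among themselves. The number of reads behind a peak is unknown. Shares are given with Wilson 95% confidence intervals and medians with 95% intervals from order statistics. These intervals treat sites as independent and cover neither experimental error nor differences between cultures. No test between sets of sites was made, and comparisons with other pairs are descriptions.

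Because the score was used to choose the sites, it is described here without reading anything from it. ASH1 scores of the 440 sites had a median of 2625.9 (quartiles 1528.5 and 3100), and FSH scores a median of 2010.3 (quartiles 1371.7 and 3100). ASH1 reached 3100 or more at 195 sites (44.3%) and FSH at 148 sites (33.6%). Both did so at 68 sites, which is 15.5% (12.4 to 19.1) of the strong narrow sites, next to 7.48% of all one-to-one pairs and 28.1% of the strong broad pairs, in which both peaks scored at least 1000 and were longer than 1000 bp. By the limits, every narrow pair with both scores at 3100 is a strong narrow site. These 68 sites are 2.06% of all 3297 narrow pairs, so the rise from that share to 15.5% follows from the score limit. In the same way, all 525 one-to-one pairs with both scores at 3100 or above are among the 2137 pairs of any length that pass it. The higher share next to all one-to-one pairs is therefore not read as a trait of the sites. ASH1 alone reached 3100 at 127 sites, FSH alone at 80 sites and neither at 165 sites. Scores above 3100 were rare and occurred at 14 sites, with a highest value of 3233.1 in either list. The lists do not tell whether a score above 3100 marks a stronger peak than the shared value of 3100.

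The ASH1 score was the higher one at 228 sites (51.8%), the FSH score at 153 sites (34.8%), and 59 sites (13.4%) had equal scores. Over all narrow pairs these shares were 65.0%, 33.2% and 1.79%, so a higher ASH1 score was not particular to the strong narrow sites. The score limit and the shared value of 3100 bear on these shares. These counts take scores as printed, although the order of scores at and above 3100 is uncertain.

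**Figure D1:**
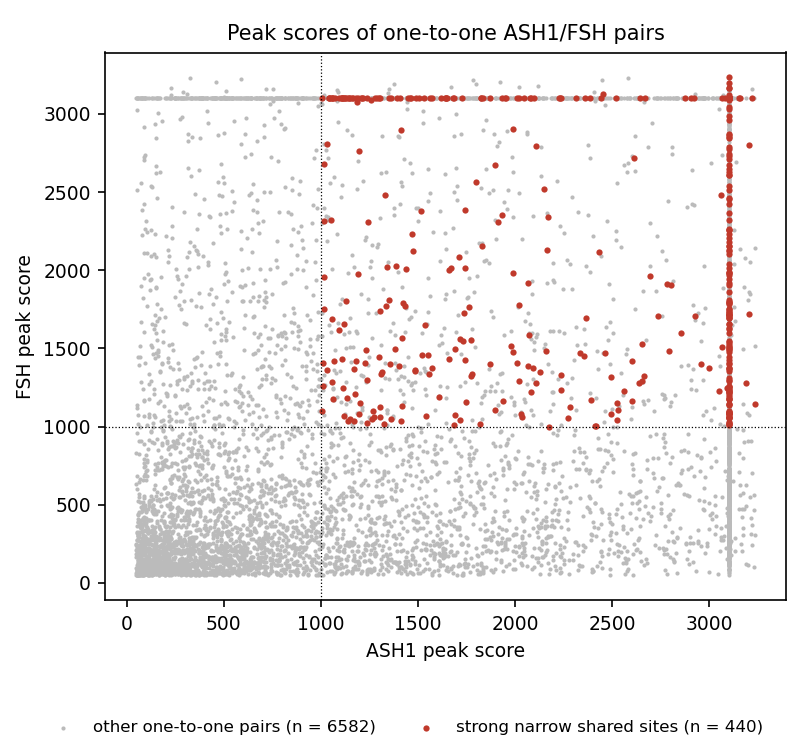
Score of the FSH peak (vertical axis) against score of the ASH1 peak (horizontal axis) for 7022 one-to-one pairs, with the 440 strong narrow sites in red, all other pairs in grey and dotted lines at the score limit of 1000. The red points lie in the upper right quadrant, as the limits require, and many of them have a score of 3100 in at least 1 list. Grey points in that quadrant have at least 1 peak longer than 1000 bp.

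The limits on score and length cut through continuous distributions. The lowest scores inside were 1000.4 for an FSH peak on chrUextra at 2106978 to 2107810, and 1004.6 for FSH peaks on 3R and on X. The 3 pairs just outside had lower scores of 999.8, 998.1 and 991.1. Within 10% above the minimum there were 68 sites, and within 10% below it 60 narrow pairs. The longest peaks inside measured 1000, 1000 and 999 bp, and the first pairs outside had longer peaks of 1001, 1001 and 1002 bp. In 123 sites the longer peak measured more than 900 bp, and 117 strong pairs had a longer peak of more than 1000 and up to 1100 bp. Dropping the length limit gave 2137 strong pairs, and dropping the score limit gave 3297 narrow pairs.

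The midpoints of both peaks usually lay within 50 bp of each other. The median distance between the midpoints of the ASH1 and the FSH peak was 24.8 bp (22 to 28.5, n = 440), with quartiles of 10.5 and 52.1 bp and a maximum of 271 bp. Over all one-to-one pairs the median was 49.5 bp, and over the strong broad pairs 67.5 bp. Shorter peaks leave less room for distant midpoints, so the narrow pairs are the closer comparison. Their medians were 31.5 bp (29.5 to 34) for the 1622 pairs with both scores below 1000 and 32 bp (29.5 to 34.5) for the 1235 pairs with a single strong peak. The median union was 822.5 bp at the strong narrow sites and 703 and 765 bp in these sets. On the arms X, 2L, 2R, 3L and 3R alone the distances lay closer together. The medians were 27.5 bp (23.5 to 30.5) for 375 strong narrow sites, 33 bp (31 to 35.5) for weaker narrow pairs and 32 bp (30 to 35.5) for narrow pairs with a single strong peak.

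Midpoints within 50 bp of each other were found at 323 sites, or 73.4% (69.1 to 77.3), while the share over all pairs was 50.5%. The share was 67.1% in weaker narrow pairs and 65.3% in narrow pairs with a single strong peak. At 107 sites (24.3%) the midpoints lay within 10 bp, at 36 sites (8.18%) they were more than 100 bp apart, and at 3 sites (0.682%) more than 200 bp. Over all narrow pairs these shares were 20.5%, 12.9% and 2.12%. On the arms alone, midpoints within 10 bp were about as frequent at strong narrow sites (20.5%) as in narrow pairs (19.0%). Distances of more than 100 bp made up 9.07% and 13.5% there. For scale, the sonicated chromatin fragments were several times longer than the typical midpoint distance, so the distances describe the called intervals and not contacts of the proteins with single bases. Strength within the set went along with little difference in distance. Sites with a lower score of 1000 to 1500 had a median distance of 26 bp (n = 215), those of 1500 to 2000 had 30 bp (n = 88), those of 2000 to 3100 had 22.5 bp (n = 69), and those with both scores at 3100 or above had 19.5 bp (n = 68). The rank correlation of lower score and midpoint distance was -0.08 over the 440 sites.

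**Figure D2:**
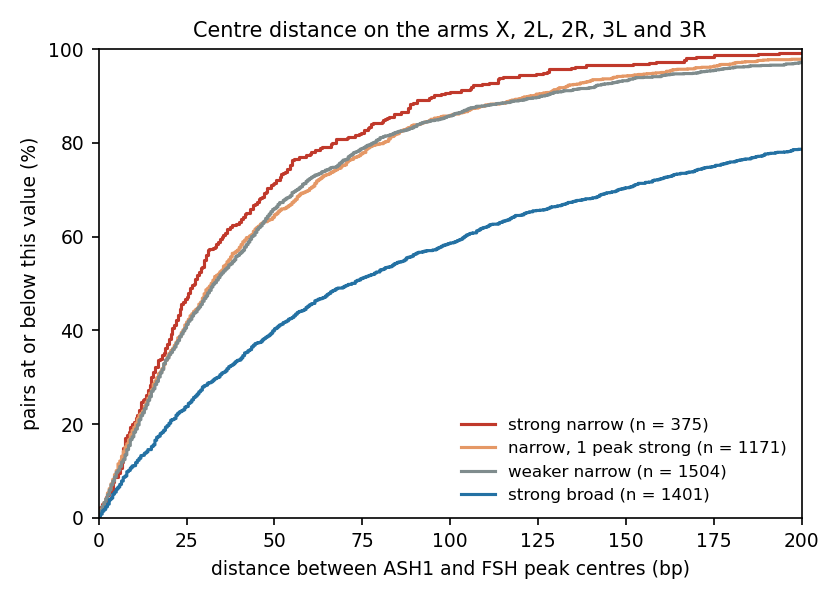
Cumulative share of pairs (vertical axis, %) against the distance between ASH1 and FSH peak midpoints (horizontal axis, bp, drawn up to 200 bp) on the arms X, 2L, 2R, 3L and 3R. The strong narrow curve (375 sites, red, median 27.5 bp) runs slightly left of both other narrow sets (33 and 32 bp), and the strong broad curve (1401 pairs, blue, median 72 bp) runs far to the right.

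The sites with the largest midpoint distance show what a loose match looks like. On 3L an ASH1 peak at 17980795 to 17981771 and an FSH peak at 17981065 to 17982043 had midpoints 271 bp apart, shared 56.6% of their union and scored 1007.2 and 1099.9. On 3R a short ASH1 peak of 470 bp (23477480 to 23477949) lay near one end of an FSH peak of 915 bp (23477029 to 23477943), at 228.5 bp. The next was on 2R, at 215.5 bp, with the ASH1 peak at 18961934 to 18962884. At the other extreme, 7 sites had midpoints on the same base. One of these, on 3R at 27753935 to 27754695, had exactly the same interval for both proteins, where ASH1 scored 2411.5 and FSH 1004.6. It was the only such pair among all 7022.

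The FSH peak was usually the longer one and often enclosed the ASH1 peak. The median length was 738 bp for the ASH1 peaks (quartiles 651 and 835.2) and 791 bp for the FSH peaks (quartiles 698 and 898), and the median overlap was 706 bp. FSH was longer at 313 sites, which is 71.1% (66.7 to 75.2), beside 65.3% of all pairs and 68.5% of narrow pairs with a single strong peak. ASH1 was longer at 122 sites, and 5 sites had peaks of equal length. Where the lengths differed by more than 100 bp, FSH was longer at 108 of 130 sites (83.1%). No matching share of other pairs is given for this value, so it is not read as particular to these sites. The ASH1 peak lay inside the FSH peak at 193 sites (43.9%) and the FSH peak inside the ASH1 peak at 47 sites (10.7%). These shares were 37.2% and 14.4% over all narrow pairs, and the first was 39.8% over all one-to-one pairs. At the remaining sites the peaks were staggered or shared an edge, and the FSH peak started first at 116 sites and the ASH1 peak at 83 sites. Lengths of both peaks went together with a rho of 0.65, as compared to 0.86 over all pairs, where lengths range far beyond 1000 bp.

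The overlap covered a median of 90.5% (89.4 to 91.7) of the union of both peaks. This share was 85.9% over all pairs and 86.9% in each of the other narrow sets. It ranged from 50.4% to 100% at the strong narrow sites, so at each of them the overlap also covered at least 50% of both peaks. The longest unions measured 1249, 1137 and 1106 bp and lay on 3L, 2L and 2R. The shortest on an arm was 452 bp, on 3R at 25145794 to 25146245, with an ASH1 score of 2430.0, an FSH score of 2119.2 and midpoints on the same base.

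Most of these sites stood apart from other peaks. No other peak of either list lay within 1 kb of 315 sites, which is 71.6% (67.2 to 75.6), and the share over all pairs was 62.3%. In strong broad pairs it was 59.1% and in weaker narrow pairs 60.4%. Narrow pairs with a single strong peak reached 71.2%, next to the value of the strong narrow sites. The values lay further apart at a larger distance. No other peak lay within 5 kb of 39.3% (34.9 to 44.0) of the strong narrow sites, 26.2% (23.9 to 28.8) of the narrow pairs with a single strong peak, 24.8% of the weaker narrow pairs and 16.9% of the strong broad pairs. The median gap to the nearest other peak was 3300.5 bp (2400 to 3834), and 1634 bp over all pairs.

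Unplaced and heterochromatic sequences hold few peaks and raise these values, so the arms are given alone as well. On the arms 69.3% (64.5 to 73.8) of the strong narrow sites had no other peak within 1 kb and 33.3% (28.8 to 38.3) none within 5 kb. The corresponding shares of all pairs on the arms were 61.6% and 19.3%, and of narrow pairs with a single strong peak 71.1% and 24.2%. The median gap on the arms was 2436 bp (1985 to 3309) for strong narrow sites and 1587 bp for all pairs.

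**Figure D3:**
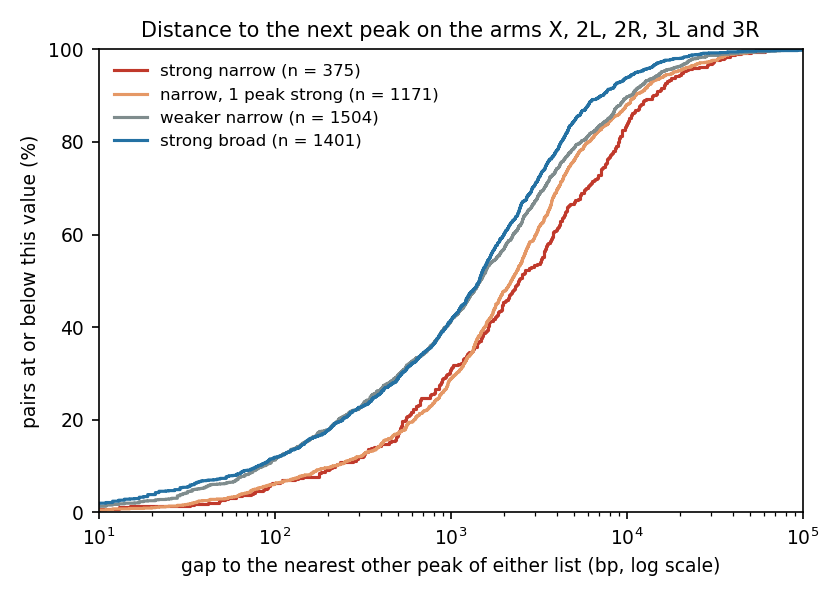
Cumulative share of pairs (vertical axis, %) against the gap to the nearest other ASH1 or FSH peak (horizontal axis, bp, log scale) on the arms X, 2L, 2R, 3L and 3R. Up to 1 kb the strong narrow sites (red, 375 sites) follow the narrow pairs with a single strong peak (orange), and beyond about 2 kb they lie to the right of the 3 other sets.

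Where another peak did lie within 1 kb, it was about as often ASH1 as FSH, both here and over all narrow pairs. Of 125 such sites, 60 had an ASH1 peak as the nearest one (48%), and 63 (50.4%) had a nearest peak with a score below 1000. Over the 1123 narrow pairs with such a neighbour these shares were 46.5% and 58.2%. The median score of the neighbours was 984.7 at the strong narrow sites, with quartiles of 296.6 and 2328.1, and 717.6 over narrow pairs. Peaks on both sides within 1 kb were found at 14 sites (3.18%), and on one side at 111 sites (25.2%). Over all narrow pairs these shares were 4.55% and 29.5%. The sites farthest from any other peak on an arm were on 3R at 19426891 to 19427782, with the next peak 67166 bp away, on 2L at 14094457 to 14095142, with 61380 bp, and on 3L at 13294803 to 13295472, with 51235 bp. The site on 2L was at or close to 3100 in both lists, where ASH1 scored 3062.1 and FSH 3100. The other isolated sites were weaker, with scores of 1554.5 and 1335.2 on 3R and 1684.9 and 1012.8 on 3L.

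The spacing of the sites along the chromosomes is given without values for other pairs, so it is not read as particular to them. The median gap from a site to the next one on the same sequence was 208.2 kb (quartiles 65.4 and 471.2, n = 429 gaps). This includes gaps on unplaced sequences, which are not distances in the genome. Among the arms and chromosome 4, for which it was calculated separately, the median was shortest on chromosome 4 with 66.4 kb, followed by 3R with 127.2 kb, and longest on X with 258.8 kb. Over the 5 arms together it was 195.0 kb (n = 370 gaps). When sites no more than 10 kb apart were joined, 63 sites (14.3%) fell into 31 groups, and at 50 kb 151 sites (34.3%) fell into 64 groups. Only 1 group of 3 formed at 10 kb, on 3R from 19877061 to 19884304, a stretch of 7.24 kb with 4 ASH1 and 3 FSH peaks.

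The closest neighbours were separated by less than the length of a peak. On 2R a site with an ASH1 peak at 1540051 to 1540688 (scores 3100 and 1787.4) was followed after 179 bp by a site with an ASH1 peak at 1540889 to 1541595 (scores 1741.9 and 2014.6). On 3R the gap was 234 bp, between ASH1 peaks at 19882746 to 19883448 and 19883683 to 19884284, both of which scored 3100, with FSH scores of 1077.3 and 1092.3. On chromosome 4 it was 344 bp, between ASH1 peaks at 333993 to 334834 and 335250 to 335767. Each such pair of sites consisted of separate peaks in both lists.

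The share of sites on chromosome 4 and on heterochromatic or unplaced sequences was larger than the share of all pairs there. The arms held 375 of the 440 sites (85.2%) and 94.9% of all pairs. Counts per arm were 70 on 2L, 79 on 2R, 82 on 3L, 93 on 3R and 51 on X. Between 5.54% and 6.08% of the one-to-one pairs on each autosomal arm were strong narrow sites, as compared to 4.65% (3.55 to 6.06) on X. When narrow pairs alone were counted, X was lower still, since 7.58% of its 673 narrow pairs were strong in both lists and between 12.6% and 14.4% on the autosomal arms.

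**Figure D4:**
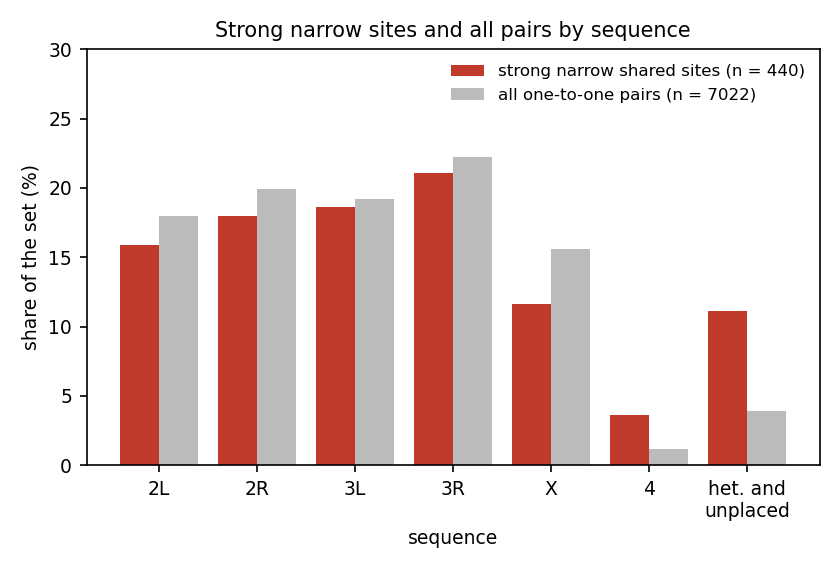
Share of the 440 strong narrow sites (red) and of all 7022 one-to-one pairs (grey) on each sequence (vertical axis, % of the set, bars from 0). The red bar is lower than the grey one on X (11.6% and 15.6%) and higher on chromosome 4 (3.64% and 1.2%) and on heterochromatic and unplaced sequences (11.1% and 3.92%).

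Chromosome 4 is a small, mostly heterochromatic chromosome whose genes are nevertheless expressed. It carried 16 sites, or 3.64% of the strong narrow sites, while 1.2% of all pairs lay there. Of its 84 pairs, 19.0% (12.1 to 28.7) were strong narrow sites, and there were 11.9 sites per Mb up to its last peak, as compared to 3.15 on the arms. When narrow pairs alone were counted, 37.2% of its 43 narrow pairs were strong narrow sites, as compared to 12.3% on the arms. A larger share was not limited to narrow sites, since strong broad pairs made up 26 of the 84 pairs there and 1401 of 6663 on the arms. The 16 strong narrow sites of chromosome 4 had a median gap of 1406 bp to the nearest other peak, and 9 of them (56.2%, 33.2 to 76.9) had none within 1 kb. Over all 84 pairs of chromosome 4 the median gap was 921.5 bp. No other peak lay within 1 kb of 46.5% of the narrow and 50% of the strong broad pairs there. Both scores were at 3100 at 4 sites, at 226246 to 226923, 691395 to 692354, 887116 to 888098 and 1071632 to 1072447. The midpoint distance was 29.2 bp in the median (12 to 41), close to that on the arms. The largest group at a joining distance of 50 kb was also found here, with 5 sites between 1071632 and 1167619, a stretch of 96.0 kb that held 8 one-to-one pairs. ASH1 scores in this group were 3100, 3100, 2358.7, 2780.1 and 2083.4 from left to right, and FSH scores 3100, 1312.7, 3100, 1913.3 and 3100.

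Heterochromatic and unplaced sequences carried 49 sites, 11.1% of the strong narrow sites, against 3.92% of all pairs. Of the 275 pairs there, 17.8% (13.7 to 22.8) were strong narrow sites, as compared to 5.63% on the arms. Most pairs on these sequences were narrow, and on the basis of narrow pairs the shares lay closer together, with 24.0% of 204 narrow pairs there and 12.3% on the arms. Most of them, 32 sites, lay on chrUextra and 8 on chrU, which join unplaced scaffolds end to end, and there were 2 on 2RHet, 3 on 3LHet and 4 on 3RHet. Distances between peaks on chrU and chrUextra are therefore not distances in the genome. The peaks at these 49 sites matched more tightly than elsewhere. Their median midpoint distance was 7.5 bp (5 to 13.5), the overlap covered 96.0% of the union, and both ends of the peaks lay within 10 bp at 16 of 49 sites (32.7%, 21.2 to 46.6), as compared to 3.47% on the arms. A tight match was not limited to strong sites. Weaker narrow pairs on the same sequences had a median midpoint distance of 14.5 bp (8.5 to 19.5, n = 102) and strong broad pairs of 13 bp (8 to 31, n = 35). The authors placed reads with several matches in the genome at one of these, and the part of this step in the values was not tested.

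Among all sites, the shortest were on unplaced sequences. On chrU an ASH1 peak of 179 bp (445038 to 445216) and an FSH peak of 192 bp (445032 to 445223) scored 1421.4 and 1790.8. On chrUextra an ASH1 peak of 180 bp (12791876 to 12792055) and an FSH peak of 193 bp (12791870 to 12792062) scored 1180.0 and 1421.2. Both pairs had midpoints 0.5 bp apart, and in each the FSH peak enclosed the ASH1 peak. Another short site on chrUextra, with a union of 288 bp from 17026003, was at 3100 in both lists.

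Displayed loci of the study's browser views were looked up to place the sites next to known elements. Their positions were estimated by eye on the printed axes and matched with a tolerance of 1 kb, and an annotation of BDGP Release 5 was not used here. Of 13 loci looked up, 5 carried a strong narrow site, namely bx, Mcp and Fab-6 in the bithorax complex (BX-C), and H15 and Cyp12c1 outside it. The study chose these regions for display, so the number of loci with a site is no measure of how often such elements carry one.

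The BX-C on 3R comprises Ubx, abd-A and Abd-B, homeotic genes which specify the identity of body segments and are classical targets of TrxG and PcG proteins. The study reports that these genes are silent in S2-DRSC cells although ASH1 and FSH bind there, together with PcG proteins. Of 13 one-to-one pairs in the displayed region, 5 were strong narrow sites. At bx, a regulatory region of Ubx, the ASH1 peak (12528315 to 12529145) scored 3100 and the FSH peak (12528311 to 12529160) 2963.1. Its midpoints were 5.5 bp apart, and the nearest other peak was 44949 bp away. At Mcp, a boundary with a PRE between regulatory domains of abd-A and Abd-B, both peaks scored 3100 (ASH1, 12694886 to 12695623; FSH, 12694815 to 12695608), and the midpoints were 43 bp apart. At Fab-6, another element of the BX-C, FSH scored 3100 (12707977 to 12708800) and ASH1 only 1212.8 (12707971 to 12708739), with midpoints 33.5 bp apart.

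Another pair of sites in the BX-C had no named element at the positions read. One had scores of 3100 in both lists (ASH1, 12624177 to 12624851; FSH, 12624004 to 12624936), and the FSH peak extended beyond the ASH1 peak on both sides. The other (ASH1, 12774173 to 12774835; FSH, 12774170 to 12774837) scored 3100 for ASH1 and 2255.8 for FSH, and its midpoints were 0.5 bp apart. All 5 sites of the BX-C were isolated, with no other peak within 5 kb, and the gaps between them were 94.8, 69.9, 12.3 and 65.4 kb. The 8 further pairs failed the limits, 6 of them on score and 2 on length. Peaks at Fab-7 scored 193.5 for ASH1 and 204.2 for FSH, and peaks at Fab-8 scored 184.2 and 894.2. At bxd both scores passed, at 3100 and 2084.8, but the ASH1 peak measured 1172 bp. Isolation was not limited to the strong narrow sites, since the nearest other peak at Fab-7 was 15801 bp away. It was 734 bp away at Fab-8 and 1090 bp at bxd. No share of the other pairs in the region is given, so isolation is not read as particular to the 5 sites.

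H15 on 2L encodes a T-box transcription factor, and Cyp12c1 on 3L a cytochrome P450 enzyme. The study describes H15 as repressed and Cyp12c1 as active in these cells. The site at H15 scored 3100 in both lists (ASH1, 5403382 to 5404196; FSH, 5403245 to 5404182), with midpoints 75.5 bp apart and another peak at a distance of 599 bp. The site at Cyp12c1 was close to the score limit for ASH1 with 1014.9 (18679070 to 18679959) and scored 1955.5 for FSH (18679005 to 18679797). Its midpoints were 113.5 bp apart, which placed it among the 36 sites with more than 100 bp, and its nearest other peak was 1516 bp away. Of the other loci, Dad, CG1105, CG1943 and Aly had one-to-one pairs that failed on length, CG1105 also on its FSH score of 596.5, and Spf45 had no one-to-one pair.

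**Figure D5:**
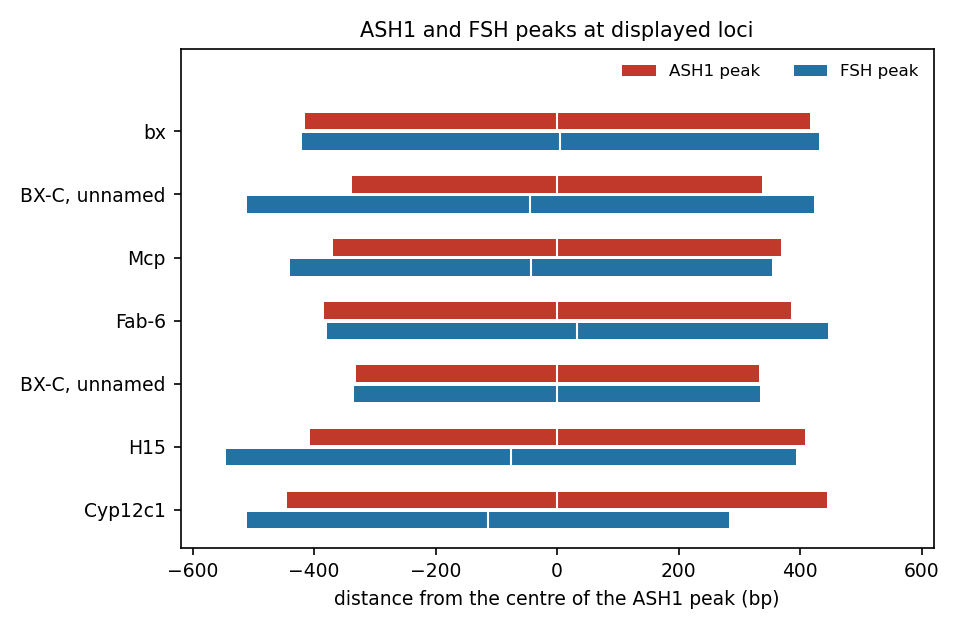
Extent of the ASH1 peak (red) and the FSH peak (blue) at 7 strong narrow sites, 5 of them in the BX-C, drawn to scale around the midpoint of the ASH1 peak (horizontal axis, bp) with white ticks at each midpoint. The midpoints almost coincide at bx and at the lower unnamed site (5.5 and 0.5 bp), whereas FSH is shifted to the left by 75.5 bp at H15 and by 113.5 bp at Cyp12c1.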

How the data were processed

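Chromatin of S2-DRSC cells was precipitated with 2 antibodies per protein and sequenced as 4 libraries. According to the submitters' notes and the study's methods, the authors aligned reads to BDGP Release 5 with Bowtie 0.12.7, allowing reads with several matches, merged alignments per protein with SAMtools 0.1.9 and called peaks against input with MACS 1.4.0 (P cut-off 1e-05, a band width of 300, and a fold range of 10 to 30 for its model). The deposited lists hold positions and 1 score per peak, which the files do not name. Replicates could not be compared, since only pooled lists were used. Depth per peak is unknown.

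Overlapping peaks were paired, pairs in which a peak had several partners were left out, as was the mitochondrial sequence, and midpoints, overlaps and gaps were calculated. Lengths are end minus start as in the files, and printed starts are counted from 1. The members and lists were chosen with earlier results of these data known. Sites named are those at displayed loci, those next to the limits, the extremes of midpoint distance, isolation and union length, and the closest neighbours. The sites on chromosome 4, the groups of joined sites, the shortest union on an arm and the most isolated sites on the arms were added after values had been seen. A RefSeq table of Release 6 served for gene names only. No sequence of Release 5 was used here, so motifs were not searched.

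The tools were Python 3.11.15 with pandas 2.3.3, numpy 2.4.6, matplotlib 3.10.9 and scipy 1.17.1. Pairing was tested on simulated lists and checked against BEDTools 2.31.1, which gave the same 9059 overlapping pairs. Alternatives were other limits on score, length, overlap and gap, all overlapping pairs, and subsets of sequences.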

Additional observations from a re-analysis of the deposited data

How the results depend on the processing

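Limits come from pooled lists: libraries could not be left out in turn, and no paired analysis was possible because the lists hold 1 pooled value per protein. The shared score of 3100 hides differences between the strongest peaks, and the motif alternative was not run for lack of a genome of the build. Of 58 alternative values, 28 moved beyond the interval of the reported share or median, or, for the number of sites, by more than 1.5 times, and 30 did not. The number of sites changes with the limits by definition, and the gap between sites changes with their number. The same 68 sites have both scores at 3100 or above at each score minimum, so that share changes with the number of sites alone. The share without a neighbour must fall as the distance searched for one is made larger. The alternative share of sites with the longer FSH peak counts only sites whose lengths differed by more than 100 bp. The cause of the other moves was not tested.

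A score minimum of 500 gave 970 sites, and 2000 gave 137. The share with both scores at 3100 then was 7.01% and 49.6%, the share on heterochromatic and unplaced sequences 8.45% and 16.8%, the share on chromosome 4 2.16% and 6.57%, and the gap to the next site 87.2 and 710.3 kb. At 2000 the midpoint distance was 21 bp and the overlap 92.3%. A length maximum of 800 bp gave 204 sites, and 1500 bp gave 1026, with midpoint distances of 20.2 and 36.8 bp, overlaps of 92.4% and 89.2%, and 15.2% and 7.6% on heterochromatic and unplaced sequences. At 1500 bp 67.1% had no neighbour within 1 kb. With gaps of 500 bp, 2 kb and 5 kb, 84.1%, 58.4% and 39.3% had none. On heterochromatic and unplaced sequences alone, a choice made after seeing the data like both shares by sequence above, the values were 7.5 bp, 93.9% without a neighbour and 20.4% with both scores at 3100. FSH was longer at 83.1% of sites whose lengths differed by more than 100 bp, a value given without a share of other pairs.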
